A study of Mus musculus with 16 samples.

Results

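The genes described are 7 members of the pancreatic-type ribonuclease (RNase A) family, the angiogenin genes *Ang*, *Ang2*, *Ang4*, *Ang5* and *Ang6* and the genes *Rnase1* and *Rnase4*. They were chosen by name, with earlier results of these data known. They are 7 of the 45513 Ensembl genes counted, and all 7 were found in the files. The 16 RNA libraries came from 8 adult mice of C57BL/6 background, and each represents sorted small intestinal cells. All mice carried Atoh1(WT)CreERT2, in which an inducible Cre recombinase is made where Atoh1, the transcription factor of the secretory lineage, is expressed, and the R26RtdTom reporter, and all had received tamoxifen, labelled as 1 mg a day for 3 days. From each mouse, live EpCAM+ epithelial cells were sorted into a tdTom+ fraction (n = 8), in which the reporter had been switched on, and a tdTom- fraction (n = 8). The label passes to the progeny of a marked cell, so the tdTom+ fraction holds descendants as well as cells with Atoh1 at the time of collection. The comparison asks which members of the family belong to the secretory fraction.

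Ribonucleases of this family are small secreted proteins that cut RNA. *Ang4* is best known as an antimicrobial product of Paneth cells, the granule-filled cells at the base of the small intestinal crypt. *Ang* encodes angiogenin, a weak ribonuclease that stimulates vessel growth and cleaves tRNA in stressed cells, *Rnase1* encodes the main digestive ribonuclease of the pancreas, and *Rnase4* encodes a ribonuclease that prefers to cut after uridine. In mouse, *Ang* and *Rnase4* are transcribed from shared promoters.

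All members lie on chromosome 14 (GRCm38). *Ang5* (ENSMUSG00000053961) is at chr14:43957069-43963080 on the plus strand and *Ang6* (ENSMUSG00000072598) at chr14:44001664-44006418 on the minus strand. *Rnase4* (ENSMUSG00000021876, chr14:51091077-51106151) and *Ang* (ENSMUSG00000072115, chr14:51091077-51102007) start at the same base of the plus strand. *Rnase1* (ENSMUSG00000035896, chr14:51145002-51146767), *Ang2* (ENSMUSG00000047894, chr14:51195486-51195923) and *Ang4* (ENSMUSG00000060615, chr14:51763878-51773590) are on the minus strand.

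The coding stretch that carries the family signature, with the catalytic lysine, shows how close the members are to each other. Each is printed 5′ to 3′ on its gene's strand from GENCODE M21 transcripts (GRCm38), with the bases that encode the signature in capitals.
Ang4, chr14:51764277-51764315, minus strand: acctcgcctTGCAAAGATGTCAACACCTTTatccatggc
Ang5, chr14:43962658-43962696, plus strand: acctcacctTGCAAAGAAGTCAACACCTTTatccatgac
Ang6, chr14:44002048-44002086, minus strand: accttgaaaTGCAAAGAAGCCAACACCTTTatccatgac
Ang, chr14:51101581-51101619, plus strand: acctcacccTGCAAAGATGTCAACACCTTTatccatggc
Ang2, chr14:51195708-51195746, minus strand: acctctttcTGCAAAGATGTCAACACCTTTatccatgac
Rnase4, chr14:51105013-51105051, plus strand: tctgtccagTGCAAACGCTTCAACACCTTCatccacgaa
Rnase1, chr14:51145674-51145712, minus strand: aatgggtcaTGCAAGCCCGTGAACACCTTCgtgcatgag
In these stretches the capitals of *Ang*, *Ang2* and *Ang4* were the same letter for letter, so 3 members cannot be told apart by these bases. Over the whole coding sequence, *Ang4* and *Ang5* were 88.1% identical, *Ang* and *Ang2* 88.1%, and *Ang5* and *Ang6* 89.6%. *Rnase1* and *Rnase4* were 59.7% identical to each other, and identity between either of them and an angiogenin gene ranged from 53.2% to 56.1%.

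Whether a read can be placed on one member depends on this identity. Windows of 50 bases, the length of the reads, were compared letter for letter among all GENCODE M21 transcripts. *Rnase1* had 0 of 943 windows in common with any other gene. *Ang6* had 0 of 395, over an M21 model that covers only its coding sequence. *Ang4* shared 31 of 660 windows, of which 30 were found in *Ang5*. *Rnase4* shared 123 of 1587 windows, all with *Ang*, and *Ang* shared 167 of 1152, of which 123 were in *Rnase4* and 44 in *Ang2*. *Ang* and *Rnase4* have 651 exon bases in common in the files, and under the counting settings a read there could not be assigned to either, so their counts come from the remaining 622 bases of *Ang* and 1345 bases of *Rnase4*.

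The promoters, taken as the 250 bases before the RefSeq start site (GRCm38.p6), were shown for the members whose counts contrasted or moved together. In *Ang4* and *Ang5* the capitals mark the longest run that both promoters share, which is 30 bases.
Ang4, chr14:51773591-51773840, minus strand: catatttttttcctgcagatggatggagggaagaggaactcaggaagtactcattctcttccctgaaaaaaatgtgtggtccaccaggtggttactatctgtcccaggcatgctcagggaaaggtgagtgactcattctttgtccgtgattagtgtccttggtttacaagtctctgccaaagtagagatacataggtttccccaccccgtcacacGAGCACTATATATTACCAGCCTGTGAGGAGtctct
Ang5, chr14:43956819-43957068, plus strand: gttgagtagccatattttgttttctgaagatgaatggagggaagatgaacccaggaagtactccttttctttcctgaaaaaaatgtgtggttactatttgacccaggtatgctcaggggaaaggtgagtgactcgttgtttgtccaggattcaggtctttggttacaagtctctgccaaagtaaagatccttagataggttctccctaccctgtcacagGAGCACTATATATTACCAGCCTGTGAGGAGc
Rnase4, second start, chr14:51095750-51095999, plus strand: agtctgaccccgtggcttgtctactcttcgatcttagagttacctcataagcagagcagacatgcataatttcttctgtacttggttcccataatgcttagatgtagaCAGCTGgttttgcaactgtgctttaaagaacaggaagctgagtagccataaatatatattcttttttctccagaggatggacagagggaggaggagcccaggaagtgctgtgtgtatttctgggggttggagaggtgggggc
The *Ang6* promoter (chr14:44006419-44006668, minus strand) was identical to that of *Ang5* at 250 of 250 bases, and *Ang4* and *Ang5* were 77.9% identical. The first start of *Rnase4* and the start of *Ang* are the same base, so that promoter (chr14:51090827-51091076) is one sequence for both genes. A few short motifs were searched on both strands. The E-box CAGCTG, of the kind that bHLH factors such as Atoh1 can bind, was found in the second *Rnase4* promoter, 142 bases before the start, and in 13.0% of the 32851 promoters in the table. Another E-box, CAGATG, was found in the *Ang4* promoter, 235 bases before the start, and in 14.4% of all promoters. At no member was there a match to the TATA box letters TATAAA, which 12.4% of promoters hold, or to the TCF motif CTTTGAT, which 3.2% hold. Only these exact letters were sought. The similar run TATATAT, seen in the capitals of *Ang4* and *Ang5* and in the second *Rnase4* promoter, was not searched, so a TATA-like element is not excluded. RefSeq listed 7 promoters for 6 of the 7 members, and that of *Ang2* was not analysed here.

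The libraries held 17116405 to 25323567 counts, so that 3 counts, taken as the floor of detection, corresponded to 0.119 to 0.175 CPM. CPM are counts scaled to a common library size after TMM (trimmed mean of M values) normalisation. The fractions were tested gene by gene with edgeR's quasi-likelihood test over the 15323 genes with enough counts, and a gene was called at a Benjamini-Hochberg adjusted p below 0.01. The sort was visible in its markers. All 7 Paneth markers and all 7 goblet markers were called higher in tdTom+ cells, and all 8 absorptive markers were called lower. In bulk RNA, a lower level can come from fewer cells of a type or from less RNA per cell, and these cannot be told apart.

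Of the 7 members, 5 had enough counts to be tested, and all 5 were called higher in tdTom+ cells in 8 of 8 mice, with no overlap between the fractions. Among all genes tested, 49.6% were called and 22.7% were called higher. The shares of all genes that were higher in 8 of 8 mice, or without overlap, were not computed. Neither is therefore read as a trait of the family. The median log2 fold change of the 5 tested members was 4.61, while the median over all genes tested was 0.01. *Ang5* passed the filter on low counts through its tdTom+ libraries only. The remaining members, *Ang6* and *Ang2*, were at or below the floor in every library.

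*Ang4*, the Paneth cell angiogenin, had the largest counts of the family. Its level in tdTom+ libraries was lowest at 1007 CPM in mouse 5, had a median of 1512 CPM, and was highest at 2384 CPM in mouse 7. In tdTom- libraries it was 6.67 CPM at the lowest, 7.39 CPM at the median and 11.3 CPM at the highest. The lowest tdTom+ library was thus far above the highest tdTom- library. The log2 fold change was 7.68 ± 0.22 (SE, n = 8 each), a 205-fold difference, with an adjusted p of 2.61e-15 (edgeR). By counts, *Ang4* stood between rank 39 and rank 74 of all genes in the tdTom+ libraries, and between 8425 and 9711 in the tdTom- libraries. Its log2 fold change was the 6th largest of all genes tested.

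*Ang5*, a close paralog of *Ang4*, showed the same pattern at a far lower level. It ranged from 21.7 CPM in mouse 8 through a median of 29.1 CPM to 48.7 CPM in mouse 7 in tdTom+ cells. In tdTom- cells it had 1 to 6 counts per library, which was 0.0422 CPM at the lowest, 0.188 CPM at the median and 0.302 CPM at the highest, on either side of the floor. The log2 fold change was 7.63 ± 0.29 (SE, n = 8 each; adjusted p = 1.3e-13, edgeR). From the summed counts, 5414 against 27, the ratio was 196 with a 95% interval of 135 to 298 that covers counting error only.

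The counts of *Ang5* were small beside those of *Ang4*, in a similar pooled proportion in both fractions. They came to 2.07% of the *Ang4* counts in tdTom+ cells (95% exact binomial interval 2.01% to 2.12%, counting error only), with single libraries between 1.83% and 2.33%. In tdTom- cells they came to 2.08% (1.38% to 3.01%), with single libraries, of 1 to 6 *Ang5* counts each, between 0.599% and 3.65%. Of the 660 windows of *Ang4*, 30 (4.55%) occur letter for letter in *Ang5*, and a read from these could be counted at either gene as its primary alignment. An even division of such reads would give 2.33 counts at *Ang5* for every 100 left at *Ang4*, if reads fell evenly along the transcript. The deposited counts carry no read positions, so transcripts of *Ang5* and reads of *Ang4* counted at *Ang5* cannot be told apart, and every value given for *Ang5* is subject to this.

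*Ang6*, the closest relative of *Ang5*, was practically without counts. It had 1 count in 1 of the 8 tdTom+ libraries and 0 counts in the 8 tdTom- libraries, and 3 counts over all tdTom+ libraries would correspond to 0.018 CPM. In tdTom+ cells the counts of *Ang5* and *Ang6* were 5414 and 1, a ratio whose 95% exact interval ran from 971 to 213880 (counting error only), over exon models of 708 and 714 bases. Their promoters and the first 50 transcribed bases were identical, with 0 differences, whereas the first 50 bases of *Ang4* and *Ang5* had 37 differences. A read from the identical first bases could be counted at either gene. Over its coding sequence *Ang6* shared no window with *Ang4*, and its other exon bases were not compared. *Ang2* had 0 counts in all 16 libraries, over the 438 bases of coding sequence that stand for it in the files. None of the windows of *Ang* or *Ang4* occurred in that stretch. At this depth *Ang6* and *Ang2* were not detectable above the floor.

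*Rnase1*, the pancreatic ribonuclease gene, was next in fold change. In tdTom+ libraries it was 75.4 CPM in mouse 5, the lowest, 139 CPM at the median and 191 CPM in mouse 7, the highest. In tdTom- libraries it was 4.40 CPM at the lowest, 5.55 CPM at the median and 7.61 CPM at the highest, and the fractions stayed well apart. The log2 fold change was 4.61 ± 0.18 (SE, n = 8 each; adjusted p = 1.77e-13, edgeR), or 24.4-fold. Since pancreatic acinar cells make large amounts of this gene product, their markers were checked. Of 10 acinar markers, 6 had no count in any library, among them the trypsinogen gene *Prss2*, the elastase genes *Cela2a* and *Cela3b* and the carboxypeptidase gene *Cpa1*. The 10 markers summed to 4.34 to 6.05 CPM in tdTom+ and 3.61 to 5.93 CPM in tdTom- libraries, most of it *Cela1* (4.23 CPM in each fraction). The chymotrypsinogen gene *Ctrb1* had more counts in tdTom+ cells, 140 against 7 (0.854 and 0.0406 CPM), as did the amylase gene *Amy2a5*, with 7 against 4, and both were too low to be tested. The part of acinar RNA in the *Rnase1* level was not tested further. Endothelial and stromal markers, also checked because vessels make *Rnase1*, summed to 2.78 to 4.11 CPM and 2.71 to 4.86 CPM, with *Kdr* and *Cdh5* at 0 counts in all tdTom+ libraries. The endothelial gene *Pecam1* had counts in every library, 192 over the tdTom+ and 158 over the tdTom- libraries, and was not called (log2 fold change 0.32, adjusted p = 0.329, edgeR).

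*Rnase4* had the second highest level in tdTom+ cells. It was 259 CPM in mouse 5, the lowest, 312 CPM at the median and 355 CPM in mouse 3, the highest. In tdTom- cells it was 26.8 CPM at the lowest, 37.3 CPM at the median and 48.7 CPM at the highest. The fractions did not overlap, and the log2 fold change was 3.06 ± 0.12 (SE, n = 8 each; adjusted p = 2.99e-13, edgeR), or 8.36-fold.

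*Ang*, which encodes angiogenin, had the smallest difference of the tested members. It was 37.0 CPM in mouse 5, the lowest, 42.8 CPM at the median and 51.5 CPM in mouse 4, the highest, in tdTom+ cells. In tdTom- cells it was 4.89 CPM at the lowest, 8.21 CPM at the median and 9.67 CPM at the highest. The log2 fold change was 2.53 ± 0.13 (SE, n = 8 each; adjusted p = 6.54e-12, edgeR), or 5.77-fold.

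**Figure D1:**
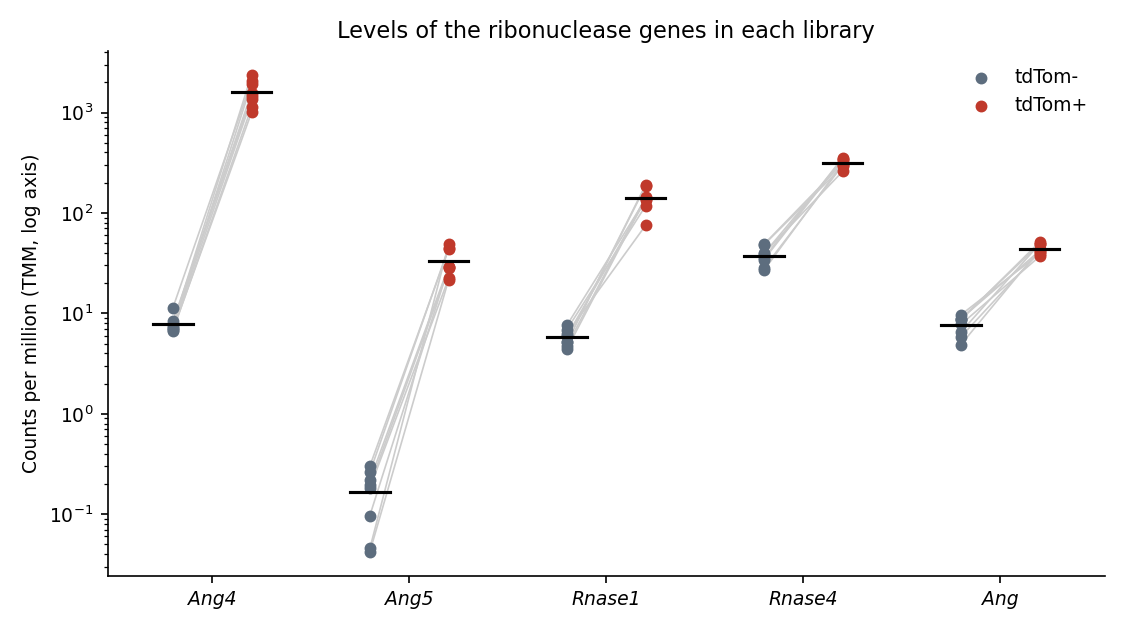
Level of each tested member in CPM (log axis) in the 8 tdTom- libraries (grey) and the 8 tdTom+ libraries (red), with lines joining the fractions of one mouse and black bars at the means. Every tdTom+ library lies above every tdTom- library of the same gene, with *Ang4* at 1007 to 2384 CPM against 6.67 to 11.3 CPM.

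The order of the members was not the same in the fractions when levels were compared per kilobase of exon not shared with another gene. In tdTom+ cells *Ang4* led with 2272 ± 671 CPM per kb (SD, n = 8), followed by *Rnase4* (233 ± 23.3), *Rnase1* (145 ± 37.9), *Ang* (70.9 ± 8.37) and *Ang5* (47.2 ± 15.1). The ranges of *Rnase4* and *Rnase1* overlapped, as did those of *Rnase1* and *Ang*, and of *Ang* and *Ang5*, whereas *Ang4* lay above all others. In tdTom- cells *Rnase4* led with 27.9 ± 6.02 CPM per kb. *Ang* (12.3 ± 2.72) and *Ang4* (11.1 ± 2.11) had overlapping ranges, and *Rnase1* (5.94 ± 1.14) and *Ang5* (0.237 ± 0.137) were lower.

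The make-up of the family counts therefore differed between the fractions. *Ang4* took 74.5% ± 3.63 (SD, n = 8) of the counts of the 7 members in tdTom+ libraries and 13.7% ± 3.61 in tdTom- libraries. *Rnase4* took 15.3% ± 3.18 and 63.3% ± 3.76, and *Ang* took 2.13% ± 0.387 and 12.9% ± 1.52. The shares of *Rnase1* were 6.57% ± 0.673 and 9.78% ± 0.728. Together with *Ang5*, at 1.54% ± 0.157 and 0.308% ± 0.201, these sum to the whole of the family counts but for the single count of *Ang6*. As a share of all counts in a tdTom+ library, *Ang4* alone took 0.157% ± 0.0445.

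**Figure D2:**
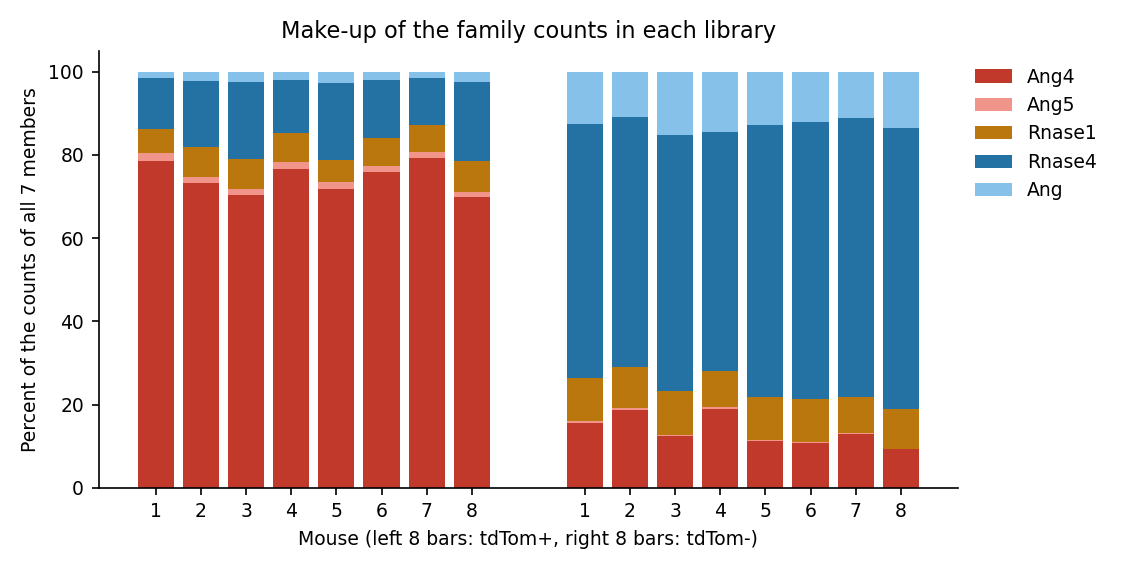
Share of each member in the counts of all 7 members (percent, bars from 0) in the tdTom+ libraries of mice 1 to 8 on the left and the tdTom- libraries of the same mice on the right. *Ang4* makes up most of each tdTom+ bar, 69.8% to 79.1%, and *Rnase4* most of each tdTom- bar, 57.5% to 67.6%.

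Differences between members were tested on their log2 ratios (prior count of 2), with a two-sided exact permutation test that went through all 12870 ways to divide the 16 libraries. The p-values were adjusted over the 10 pairs of tested members. The ratio differed between the fractions in all 10 pairs at an adjusted p below 0.05, but the call of the pair *Ang4* and *Ang5* depended on the prior count. Its mean log2 ratio was 5.59 ± 0.11 (SD, n = 8) in tdTom+ cells and 4.99 ± 0.52 in tdTom- cells, a difference of 0.61 (exact permutation, adjusted p = 0.0101, positive in 7 of 8 mice). With a prior count of 0.5 the ratios were 5.60 and 5.55 and the adjusted p was 0.88 (exact permutation), since the 1 to 6 counts of *Ang5* in tdTom- cells are of the size of the prior. The other differences with *Ang5* kept their call but also moved, from 4.48 to 5.04 for *Ang*, 3.94 to 4.51 for *Rnase4* and 2.46 to 3.01 for *Rnase1*. As counts of *Ang5* may be reads of *Ang4*, these pairs are not separate from those of *Ang4*. *Ang* and *Rnase4*, which share a start site, were the other pair with close ratios. The log2 ratio of *Ang* to *Rnase4* was -2.83 ± 0.08 (SD, n = 8) in tdTom+ cells and -2.29 ± 0.21 in tdTom- cells, so *Rnase4* differed more between the fractions, by 0.54 on the log2 scale in 8 of 8 mice (exact permutation, adjusted p = 0.000173). With a prior count of 0.5 this difference was 0.53. The ratio of *Ang4* to *Rnase1* differed by 3.06 and that of *Ang4* to *Ang* by 5.08, each in 8 of 8 mice. Each had an adjusted p of 0.000173 (exact permutation), which comes from the smallest p this test allows. The test does not use the pairing of the fractions by mouse. With the paired exact sign-flip test over the 8 mice, the adjusted p was 0.00868 for each.

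The same folds, written as the level left in tdTom- cells, allow the members to be set beside the markers. *Ang4* and *Ang5* in tdTom- cells were at 0.487% and 0.501% of their tdTom+ level. The 7 Paneth markers were at 0.48% to 0.609% and the 7 goblet markers at 0.534% to 1.40%. *Rnase1*, at 4.08%, *Rnase4*, at 12.0%, and *Ang*, at 17.3%, lay above every Paneth and goblet marker. In single mice *Rnase1* ranged from 2.69% to 8.23%, *Rnase4* from 8.58% to 16.5% and *Ang* from 11.3% to 24.6%. The 8 enteroendocrine markers, of another secretory type, ranged from 6.38% to 47.0%. Of 8 tuft cell markers 7 were tested, and these ranged from 17.8% to 57.2%, with 6 of them called higher in tdTom+ cells. How much of each residue came from labelled-type cells within the tdTom- gate was not tested.

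**Figure D3:**
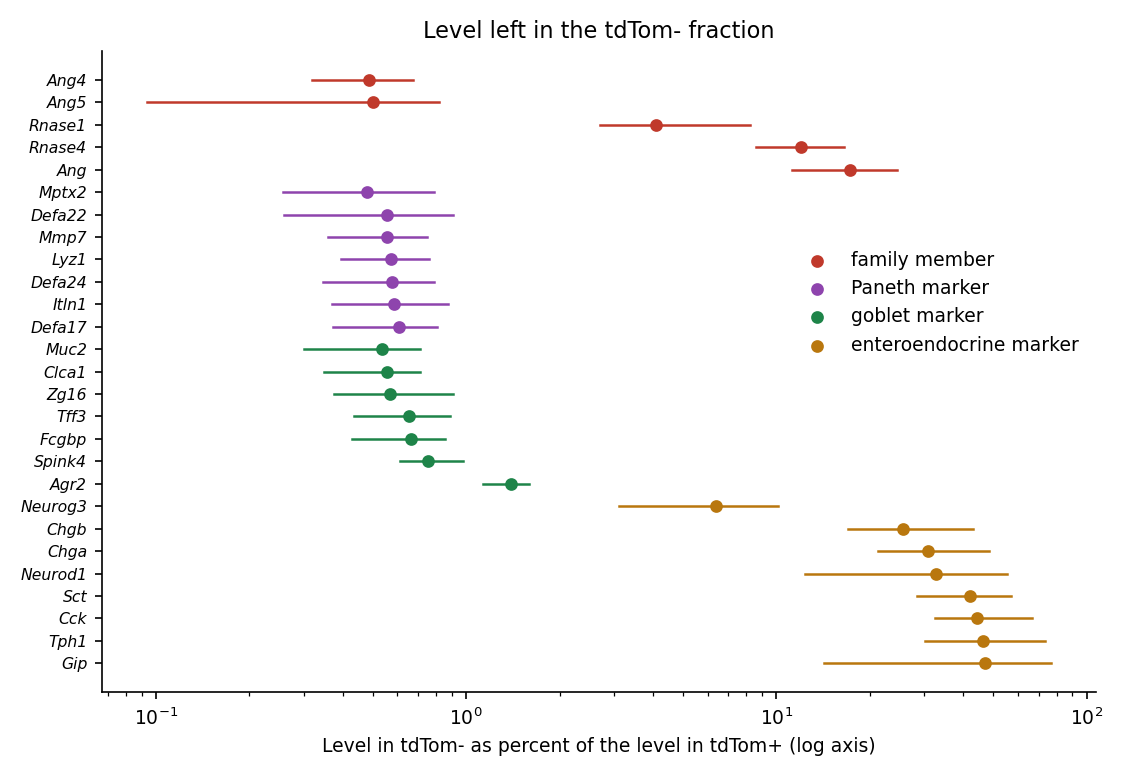
Level in tdTom- cells as a percent of the level in tdTom+ cells (log axis) for the tested members and for Paneth, goblet and enteroendocrine markers. Points are ratios of the fraction means and lines span the lowest to the highest of 8 mice, with *Ang4* (0.487%) and *Ang5* (0.501%) beside the Paneth markers and *Ang* highest of the members at 17.3%.

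The other genes of the superfamily were nearly silent. Of the 16 further genes, which include the eosinophil-associated ribonucleases, the ribonucleases of the male tract and 3 angiogenin pseudogenes, none passed the filter on low counts, and 10 had 0 counts in all 16 libraries. *Rnase12* had 28 counts over the tdTom+ libraries and 22 over the tdTom- libraries. *Rnase6*, a ribonuclease of macrophages, had 13 and 48. The remaining genes with any count had at most 2 in a library. Macrophage genes were also sparse and more frequent in tdTom- cells, with *Csf1r* at 11 and 188 counts and *Adgre1* at 6 and 60. In the list of eosinophil and macrophage markers, 1 of the 3 genes tested was called, *Lyz2*, at a log2 fold change of 7.42, which is a near copy of the Paneth gene *Lyz1*. *Siglecf*, listed as an eosinophil marker, at 12.3 against 7.40 CPM, was higher in tdTom+ cells in 7 of 8 mice (log2 fold change 0.74, adjusted p = 0.134, edgeR). With mouse as a block *Siglecf* passed (0.71, adjusted p = 0.00215, edgeR). Which cells its counts came from was not tested. Other eosinophil genes of the list were too low to be tested. *Prg2* had 5 counts over the tdTom+ and 28 over the tdTom- libraries, *Ccr3* had 2 and 22, and *Epx* had 1 and 0.

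Of 4 genes whose products act with these ribonucleases, 1 was called. Among all genes tested 49.6% were called and 22.7% were called higher, so the count is not read as a trait of these genes. *Rnh1*, which encodes the cytosolic inhibitor that binds and blocks RNase A family proteins, was called higher in tdTom+ cells, at 188 ± 21.6 CPM against 94.1 ± 5.14 CPM (SD, n = 8 each), in 8 of 8 mice. The log2 fold change was 1.00 ± 0.07 (SE), with an adjusted p of 9.59e-10 (edgeR). *Plxnb2*, which encodes the receptor through which angiogenin enters cells, was at 332 and 335 CPM, and the log2 fold change was -0.01 ± 0.10 (SE), with an adjusted p of 0.912 (edgeR). The tRNA methyltransferase genes *Nsun2* and *Trdmt1*, whose products protect tRNA from angiogenin, were near the threshold. The log2 fold change was 0.30 ± 0.12 (SE) for *Nsun2*, at an adjusted p of 0.0368 (edgeR), and -0.47 ± 0.15 for *Trdmt1*, at 0.0118. With mouse as a block both passed, with adjusted p-values of 0.00257 and 0.00903 (edgeR), so that 3 rather than 1 of the 4 partner genes were called. That fit called 8556 of all 15323 genes tested. Without mouse 3, the log2 fold change of *Trdmt1* was -0.30 (adjusted p = 0.0771, edgeR). Ribonucleases of other families had smaller log2 fold changes than the tested members. Of 12 such genes, among them *Dicer1*, *Drosha*, *Xrn1* and the RNase H2 subunits, 11 were tested and 0 were called (edgeR), with log2 fold changes from -0.18 (*Dicer1*) to 0.28 (*Rnaseh2b*) and a median of -0.03. At an unadjusted p below 0.05 the count was 1, DESeq2 and limma-voom also called 0, and with mouse as a block 1 was called, *Dicer1* (adjusted p = 0.00648, edgeR).

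**Figure D4:**
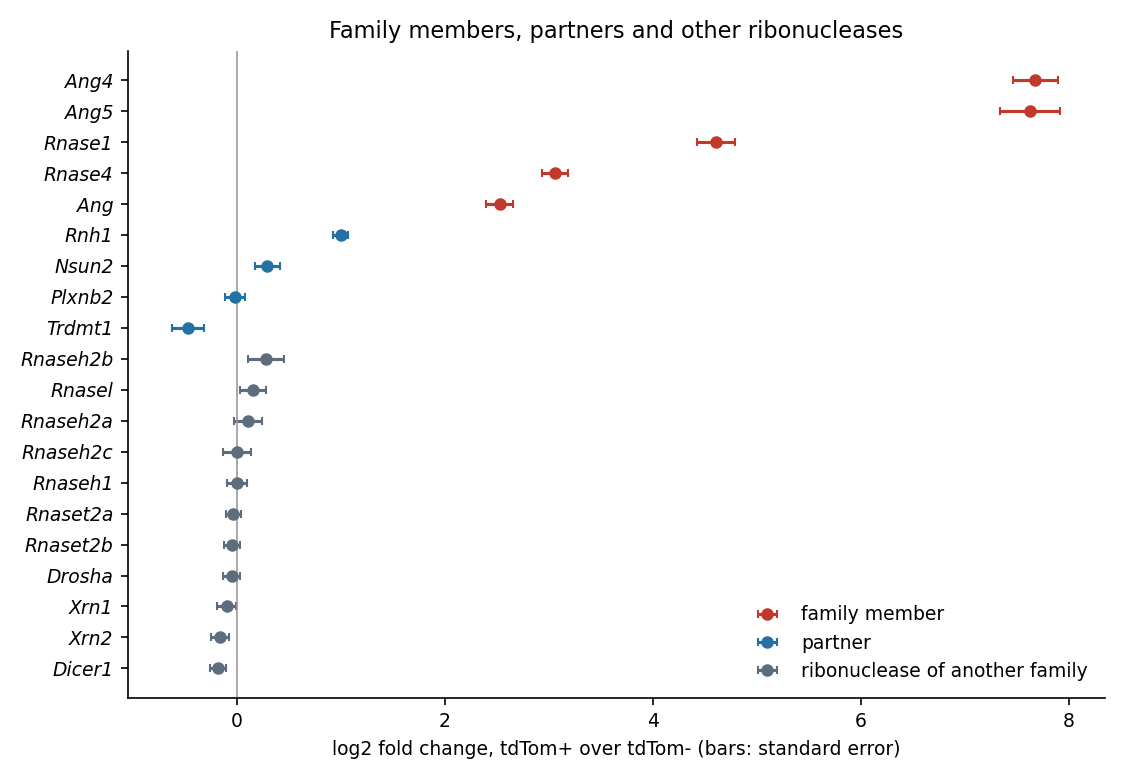
Log2 fold change of tdTom+ over tdTom- cells, with standard errors, for the 5 tested members (red), 4 partner genes (blue) and 11 ribonucleases of other families (grey). The members lie between 2.53 and 7.68, *Rnh1* at 1.00, and the ribonucleases of other families between -0.18 and 0.28.

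The surroundings of the members on chromosome 14 held genes called in either direction. Between the first and the last member, with 100 kb on either side, lie 198 other genes, of which 107 had no count and 49 were tested. Of these, 8 were called higher and 15 lower, with a median log2 fold change of -0.08, beside the background of 22.7% called higher and 27.0% called lower. The largest log2 fold changes were those of the prostaglandin D2 receptor gene *Ptgdr* (7.12 ± 0.31, SE, at 23.5 against 0.165 CPM) and of the overlapping *Gm16976* (6.66 ± 0.43, at 2.44 against 0.0185 CPM), 844.8 and 852.3 kb from *Ang6*, with tdTom- levels near or under the floor. The only tested gene within 100 kb of a member, other than the members themselves, was *Gm8113*. It lies 23.7 kb from *Ang5* and was at 8.13 against 2.45 CPM (log2 fold change 1.73 ± 0.17, SE, n = 8 each, with an adjusted p of 7.83e-08, edgeR). Members aside, the nearest tested genes to *Rnase4* and *Ang* were *Gm49342* and *Pnp2*, about 126 kb away. They overlap each other on the plus strand, and both were called lower, with log2 fold changes of -1.48 and -1.99.

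Among the 8 tdTom+ libraries, mice differed in their Paneth signal, and the members were set against it. Scores were the mean log2 CPM of the 7 Paneth markers, which ranged from 12.0 in mouse 5 to 13.2 in mouse 7, and of the 7 goblet markers, from 13.3 to 14.1. In all 10 relations were computed, 5 members against 2 scores, each with an exact two-sided permutation test. *Ang4* rose with the Paneth score (Pearson r = 0.88, exact p = 0.000397, adjusted 0.00397; Spearman rho = 0.95, exact p = 0.00114, adjusted 0.0057). *Ang5* did too (r = 0.85, exact p = 0.000893, adjusted 0.00446; rho = 0.90, exact p = 0.00456, adjusted 0.0152). For *Rnase1*, r was 0.77 (exact p = 0.0447, adjusted 0.149) and rho was 0.98 (exact p = 0.000397, adjusted 0.00397), so the rank test passed and the linear one did not. *Ang* (r = 0.58, exact p = 0.116, adjusted 0.29) and *Rnase4* (r = 0.46, exact p = 0.257, adjusted 0.514) did not pass. None of the 5 relations with the goblet score passed, with r from -0.28 to 0.31 and adjusted exact p-values of at least 0.703. Without the 2 libraries farthest from the median score, r was 0.90 for *Ang4* and 0.90 for *Ang5*, but with 6 libraries neither passed (adjusted exact p = 0.111 for each), and r was 0.70 for *Rnase1*, 0.13 for *Ang* and 0.12 for *Rnase4*. Members and markers were measured in the same libraries and share their scaling.

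**Figure D5:**
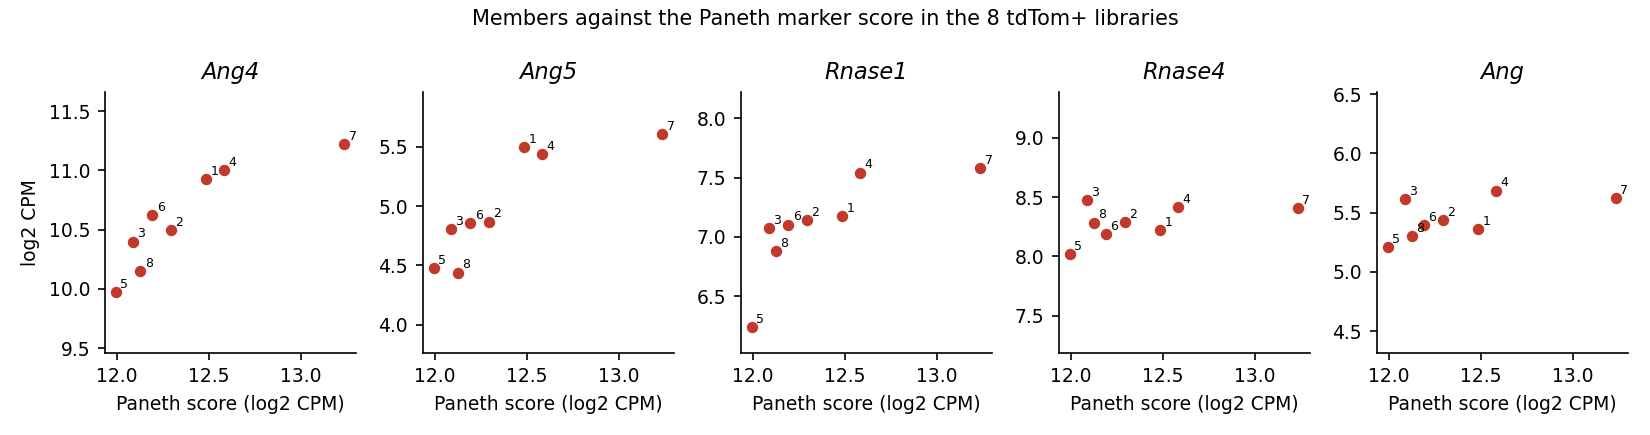
Log2 CPM of each tested member against the Paneth marker score (mean log2 CPM of 7 markers) in the 8 tdTom+ libraries, with points numbered by mouse and all vertical axes spanning the same range. *Ang4* (r = 0.88) and *Ang5* (r = 0.85) climb from mouse 5 to mouse 7, while *Rnase4* (r = 0.46) stays nearly level.

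For each tested member the genes with the most similar profile over the 16 libraries were listed. Similarity was the root mean square difference of mean-centred log2 CPM, among 9411 genes with at least 10 CPM in one fraction. Where the fractions differ this much, the distance largely follows the fold change, so the lists restate the folds and are not separate evidence. For *Ang4* they were the lysozyme gene *Lyz1* (0.154), the intercalated lectin gene *Itln1* (0.207) and the defensin gene *Defa24* (0.209). Those of *Ang5* were *Defa-ps6* (0.393), *Mptx1* (0.396) and *Defa26* (0.409). *Rnase1* was nearest to *Bambi* (0.276), which encodes a decoy receptor of TGF-beta signalling, to the receptor tyrosine kinase gene *Kit* (0.330) and to *5330417C22Rik* (0.336). For *Rnase4* the nearest genes were the glycine transporter gene *Slc6a9* (0.228), the ATP-gated channel gene *P2rx4* (0.256) and *Dnajc10* (0.279), which encodes a disulfide reductase of the endoplasmic reticulum. Those of *Ang* were *Phlda1* (0.260), *Smim14* (0.263) and *Cd24a* (0.275). Between members, *Ang* and *Rnase4* differed by 0.309 and *Ang4* and *Ang5* by 0.462, while the other pairs differed by 0.774 to 2.57. These distances use a prior count of 2, which is of the size of the 1 to 6 counts of *Ang5* in tdTom- libraries. Those of *Ang5* were not computed at another prior count.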

How the data were processed

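Each library has 1 deposited file of raw counts, by Ensembl gene. The authors aligned 50-base single-end reads from stranded mRNA libraries to GRCm38 (GRCm38.p3, TopHat2 2.1.1 and Subread 1.5.2 per the submitters' processing notes) and counted exons by gene. The file headers name featureCounts 1.5.0-p1, with reverse strand, primary alignments only and no reads counted for overlapping genes. Symbols were mapped for 44585 of 45513 identifiers.

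Genes were filtered with filterByExpr, scaled by TMM and tested with edgeR 4.0.16 (R 4.3.3; glmQLFit and glmQLFTest, no block), with Benjamini-Hochberg adjustment over 15323 genes. DESeq2 1.42.0, limma 3.58.1 and other settings were alternatives. The main edgeR fit was checked on simulated counts, and the exact permutation and sign-flip tests of the ratios on constructed values. Log2 CPM used a prior count of 2. The nearest-profile rule took 3 genes per tested member. The 7 members and the gene lists were chosen with earlier results of these data known. Libraries were paired by the number in their titles, which the series design backs, as both populations were taken from every mouse. Deviations from the fraction means correlated at 0.426 on average within a mouse (0.245 to 0.634) and at -0.0569 between mice, and 8 of 8 tdTom- libraries matched their own mouse best.

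Library totals set the precision, and intervals and floors cover counting error only. The labels and the study's account of how the secretory signature was defined both give 1 mg tamoxifen a day for 3 days. Its RNA sequencing methods describe another injection scheme and do not name the signature libraries. Genes shared by windows were sought among GENCODE M21 transcripts, and the genome sequence was not used here.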

Additional observations from a re-analysis of the deposited data

Results flagged for a closer look

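In the tdTom- fraction, *Ang4* in mouse 4 stood above the other libraries. Its log2 CPM was 3.51, against 3.07 in the next library and 2.76 in the lowest, so that the gap was 0.586 of the whole range, which is over Dixon's 95% critical value for 8 samples. In all, 10 sets of 8 values were examined, and about 1 in 20 such sets is picked out by chance. The Paneth marker score of the same library was also the highest of its fraction (5.31, range 4.69 to 5.31 log2 CPM).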

How the results depend on the processing

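Each tested member was called higher in tdTom+ cells under each alternative that could test it, with log2 fold changes of 7.58 to 7.83 for *Ang4*, 7.39 to 7.80 for *Ang5*, 4.51 to 4.73 for *Rnase1*, 2.99 to 3.18 for *Rnase4* and 2.46 to 2.65 for *Ang*. Among the alternatives were fits with mouse as a block, which gave 7.64, 7.61, 4.57, 3.08 and 2.54 in the same order. In 2 settings 4 were called rather than 5. With the paralogs added into 1 feature *Ang4* and *Ang5* are merged, and with at least 10 counts in every sample *Ang5* is not tested. The median of all genes moved to 0.12 with at least 10 counts in every sample, to 0.11 after thinning and to 0.12 without replicate 3. *Plxnb2* turned from -0.01 to 0.11 and 0.098 in the first 2 of these settings, ranged from -0.045 to 0.065 with each replicate left out, and passed in none. *Trdmt1* moved to -0.30 without replicate 3. With mouse as a block or at a threshold of 0.05, 3 partner genes were called rather than 1, and the block called 1 ribonuclease of another family rather than 0. Over all 15323 genes tested the block called 8556, beside 7606 in the main fit. The block also called *Siglecf* (log2 fold change 0.71) and changed no other call of a gene named in the text, and the paired sign-flip test kept 10 pairs of members. No relation with a marker score passed without the 2 libraries farthest from the median (0 rather than 2). Calls of neighbours ranged from 26 to 30, beside 23. Depth limits *Ang6* and *Ang2*, at or under 3 counts per library, and *Ang5* in tdTom- cells.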
